A study of Mus musculus with 3 samples.

Results

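Ebf1 and Ebf2 encode early B cell factors, and the open chromatin around both genes was described in fat cells grown from 3 mouse depots. The windows were set by position in mm9: chr11:44350000-44900000 for Ebf1 and chr14:67750000-68350000 for Ebf2. The Ebf2 window was divided into a gene stretch of 350 kb and, from 68100000 on, a downstream stretch of 250 kb. All sites with their midpoint in a window were taken, 198 of the 172496 sites in the 3 lists. The windows themselves were chosen by earlier results from these same lists (numbers of sites, tag counts and ranks within a list), so the differences between depots are descriptions and carry no test.

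DNase-seq marks open chromatin by cutting nuclei with DNase I and sequencing the cut ends, and a hypersensitive site is a place where such tags pile up. The 3 libraries came from brown fat (BAT, pooled interscapular, cervical and axillary depots), inguinal white fat (iWAT) and epididymal white fat (eWAT) of male NMRI mice aged 4 to 5 weeks. Stromal-vascular cells, the fraction that holds fat cell precursors, were differentiated in culture and harvested 8 days after plating. All cultures had 10% newborn calf serum, 30 nM insulin, sodium ascorbate, glutamine, antibiotics and 1 µM rosiglitazone, an agonist of PPARγ, and the nuclei were cut with DNase I at 120 U/ml. Each depot had 1 library, and cultures were used where more than 50% of the cells had differentiated, so that other cells could be present. How many mice or cultures went into a library is not stated in the labels, and no cell type markers were checked for want of an mm9 annotation. Fewer open cells and less open chromatin per cell cannot be told apart in such a mixture.

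EBF proteins are DNA-binding factors of the helix-loop-helix class that act as dimers. EBF1 is best known for B cell commitment and also promotes the formation of fat cells. EBF2 marks brown and beige fat precursors in mouse and helps PPARγ to bind brown fat genes. In the gene order of GRCm38, Ebf1 (gene ID 13591) lies between Rnf145, which encodes a ubiquitin ligase, and Clint1, which encodes a protein of clathrin-coated vesicles. Ebf2 (gene ID 13592) lies between Ppp2r2a, which encodes a phosphatase subunit, and Cdca2, a cell division gene. An mm9 gene annotation and an mm9 genome were not used here, so no site could be placed in an exon, intron or promoter, and the sequence of the sites is not shown.

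Of the 2 genes, the RefSeq promoter table (GRCm38.p6) gave entries for Ebf1, with 2 starts on the plus strand of chromosome 11. The 250 bases before each start are shown because this is the gene's own regulatory sequence. They are in another build than the sites, so whether a listed site covers them was not tested.

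Ebf1 start 1, chr11:44617850-44618099 (GRCm38.p6, plus strand): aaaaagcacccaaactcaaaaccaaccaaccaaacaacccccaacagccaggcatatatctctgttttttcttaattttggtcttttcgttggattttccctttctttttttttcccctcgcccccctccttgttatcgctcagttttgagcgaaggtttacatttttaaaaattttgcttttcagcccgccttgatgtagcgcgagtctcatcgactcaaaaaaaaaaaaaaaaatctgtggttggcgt

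Ebf1 start 2, chr11:44619978-44620227 (GRCm38.p6, plus strand): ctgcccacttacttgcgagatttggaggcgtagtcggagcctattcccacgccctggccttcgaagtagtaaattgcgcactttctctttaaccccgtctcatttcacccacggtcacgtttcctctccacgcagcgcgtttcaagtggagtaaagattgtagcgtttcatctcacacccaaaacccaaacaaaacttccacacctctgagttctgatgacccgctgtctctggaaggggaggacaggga

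The first of these is 40.0% G and C and the second 52.0%. Matches on either strand were sought in the 300-base entries (250 before to 50 after the start) for CCCNNGGG (core of EBF sites), TTGCGCAA (C/EBP), TTGGCA (core of NFI sites) and AGGTCA (core of nuclear receptor sites). Neither entry held any of these 4 strings, which is why no letters are in capitals. Among all 32851 entries of the table, 13.7% held the EBF core, 0.183% the C/EBP string, 14.1% the NFI string and 16.3% the nuclear receptor string. A missing string says only that these letters are not in these windows.

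The lists held 48308 sites in BAT, 63214 in iWAT and 60974 in eWAT. The authors' normalized tag count came in steps of 0.857 in BAT, 0.985 in iWAT and 0.595 in eWAT, which is taken as the worth of 1 tag. No source used here gives the total behind this scaling, so depots were compared by the rank of a site in its own list, given as a percentile with 100 for the highest. Overlapping or touching sites of the 3 lists were merged into regions, and values in brackets are 95% intervals for counting error only. A place that is missing from a list is not shown to be closed.

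By tag count, the Ebf1 stretch was rich in strong sites in all 3 depots. It held 32 sites in BAT, 38 in iWAT and 35 in eWAT, which is 0.0662%, 0.0601% and 0.0574% of the lists. The median percentile of these sites by tag count was 72.2 in BAT, 66.7 in iWAT and 70.3 in eWAT, where a whole list has 50. By fold over the surroundings it was only 18.5, 24.6 and 19.5. In the top 25% of the own list by tag count were 16 of 32 sites in BAT, 17 of 38 in iWAT and 16 of 35 in eWAT. These are 50.0% (31.9 to 68.1), 44.7% (28.6 to 61.7) and 45.7% (28.8 to 63.4). With ties at the limit, the whole lists had 26.2%, 26.1% and 25.6% of their sites in this class. In the top 10% were 7, 9 and 8 of them, against 10.2%, 10.2% and 10.6% of the whole lists. The shares in the top 25% were close to each other, with overlapping intervals.

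The Ebf2 gene stretch had sites of middling rank by tag count. It held 23 sites in BAT, 24 in iWAT and 20 in eWAT, or 6.57, 6.86 and 5.71 per 100 kb, where the Ebf1 stretch had 5.82, 6.91 and 6.36. The median percentiles by tag count were 52.9, 46.5 and 50.1, and by fold over the surroundings 25.2, 36.9 and 40.4. The top 25% held 5 sites in BAT, 5 in iWAT and 6 in eWAT, which is 21.7%, 20.8% and 30.0% and near the shares of the whole lists given above. The top 10% held 3, 1 and 1 of them.

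The downstream stretch of Ebf2 was where the depots differed most in number. BAT listed 13 sites there, iWAT 8 and eWAT 5, although BAT had the shortest list. The median percentile was 66.0 in BAT, 49.4 in iWAT and 70.3 in eWAT, and 6, 2 and 2 sites were in the top 25%. These are 46.2% (19.2 to 74.9), 25.0% (3.19 to 65.1) and 40.0% (5.27 to 85.3). The shares of the whole lists, 26.2%, 26.1% and 25.6%, lie inside these intervals. The 9072 windows of 250 kb along the genome that held any site had a median of 4 BAT, 6 iWAT and 6 eWAT sites. At least 13 BAT sites were listed in 8.90% of these windows, at least 8 iWAT sites in 40.3% and at least 5 eWAT sites in 56.4%. An excess of at least 5 BAT sites over either other list was found in 7 windows (0.0772%), none of which overlapped the stretch, since their grid was not aligned to it. The stretch was picked for its BAT sites, so its excess of 5 follows from that choice.

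**Figure D1:**
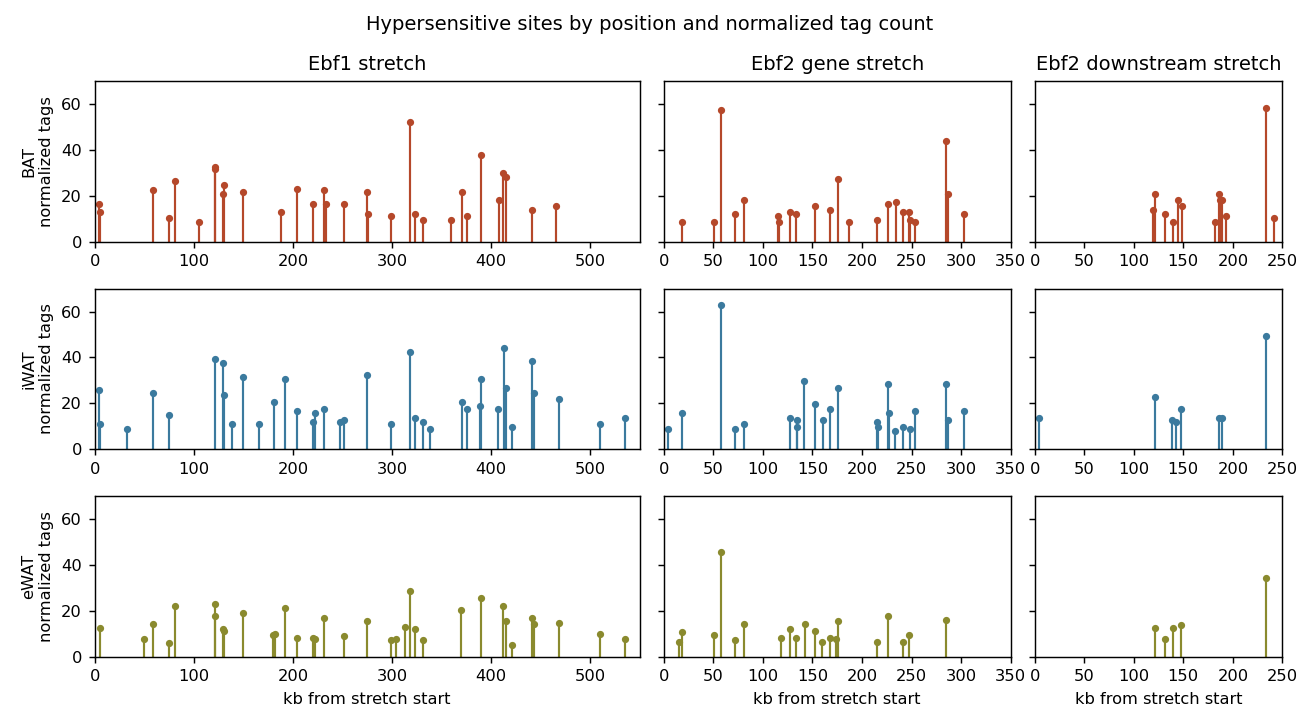
Each stem is 1 listed site, drawn by its distance in kb from the start of its stretch (x axis) and by its normalized tag count (y axis), with BAT above iWAT and eWAT. The same tall stems recur in all 3 rows, while between 100 and 200 kb of the downstream stretch BAT has the most stems; tag counts are scaled within each library.

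The strongest site of the Ebf2 gene stretch was also the strongest there in every depot. It lay at chr14:67807434-67807670 and held 57.4 normalized tags in BAT (44.5 to 72.9), 63.0 in iWAT (48.6 to 80.5) and 45.8 in eWAT (36.2 to 57.3). Its rank in the own list was 233 in BAT, 382 in iWAT and 139 in eWAT, and the midpoints of the 3 sites lay within 15 bp. It stood 28.5, 23.9 and 25.2 times above its surroundings, the highest fold over the surroundings of the Ebf2 gene stretch in each depot. The strongest site of the downstream stretch was likewise listed in all 3 depots, at chr14:68333584-68334022. There BAT had 58.2 normalized tags (45.2 to 73.9), iWAT 49.3 (36.6 to 64.9) and eWAT 34.5 (26.2 to 44.6), with ranks of 219, 1175 and 595. The BAT and eWAT sites had midpoints 1 bp apart, but the iWAT site was centred 216 bp from that of BAT and overlapped it by 6 bp. The highest peak of both Ebf2 stretches was thus listed in brown and white cells alike. Whether these peaks belong to Ebf2 or to a neighbouring gene was not tested, for want of an mm9 annotation.

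In the Ebf2 gene stretch, number 2 of BAT was the region at chr14:68034098-68034411 with 43.7 normalized tags (32.5 to 57.4), whose values in iWAT and eWAT are given with the ratios. The region at chr14:67925685-67926037 held 27.4 normalized tags in BAT, where it was number 3, 26.6 in iWAT and 15.5 in eWAT. The region at chr14:67976156-67976446 held 16.3 normalized tags in BAT, 28.6 in iWAT, where it was number 3, and 17.8 in eWAT, where it was number 2. Both were listed in all 3 depots, and their ratios between depots stayed within 2-fold of the typical common region. Downstream, BAT had 20.6 normalized tags both at chr14:68221428-68221650 and at chr14:68286237-68286459, the second of which overlapped an iWAT site of 13.8. In iWAT, number 2 was chr14:68221153-68221375 with 22.7 normalized tags and number 3 was chr14:68247682-68247904 with 17.7. In eWAT, number 2 was chr14:68248013-68248233 with 13.7 normalized tags, overlapping a BAT site of 15.4, and number 3 was chr14:68221203-68221423 with 12.5. Apart from the region near the end of the stretch, no downstream site was in the top 10% of its list.

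In the Ebf1 stretch, 1 region had the highest tag count in BAT and eWAT and the second highest in iWAT. At chr11:44668002-44668239, BAT had 52.2 normalized tags (40.0 to 67.1, rank 380), iWAT 42.4 (30.7 to 57.1, rank 2076) and eWAT 28.5 (21.1 to 37.9, rank 1392). The site with the highest count in iWAT, at chr11:44762285-44762562, held 30.0 normalized tags in BAT, 44.3 in iWAT (rank 1768) and 22.0 in eWAT. The second highest in BAT and eWAT, at chr11:44739557-44739864, held 37.7 normalized tags in BAT, 30.5 in iWAT and 25.6 in eWAT. All 3 of these regions were above the 90th percentile in every depot. At chr11:44471711-44471937, number 3 by tag count in iWAT and eWAT, BAT had 31.7 normalized tags, iWAT 39.4 and eWAT 23.2. Immediately before it, at chr11:44471169-44471417, BAT listed its number 3 of the stretch, with 32.5 normalized tags, and eWAT a site with 17.8, while iWAT listed none there.

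The lists were read next by region: 55 merged regions lay in the Ebf1 stretch, 41 in the Ebf2 gene stretch and 19 downstream. The share of regions common to all 3 depots was 18 of 55 (32.7%, 20.7 to 46.7) for Ebf1, 7 of 41 (17.1%, 7.15 to 32.1) for the Ebf2 gene stretch and 1 of 19 (5.26%, 0.133 to 26.0) downstream, where 25.2% of all 99297 regions were common. All 3 intervals include that background.

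Regions listed in a single depot made up 13 of the 19 downstream regions. Of these, 8 were BAT regions (42.1%, 20.3 to 66.5), 5 were iWAT regions (26.3%) and 0 were eWAT regions, with an exact upper bound of 17.6%. Over all regions 11.4% were listed in BAT alone, 20.5% in iWAT alone and 19.6% in eWAT alone. The stretch was picked for its BAT sites, so the downstream intervals are no test against these shares. In the Ebf1 stretch such regions numbered 9 in BAT, 9 in iWAT and 5 in eWAT, and in the Ebf2 gene stretch 5, 10 and 7. With lists of equal length the Ebf2 gene stretch had 9, 6 and 4, so that the order of BAT and iWAT turned round. That setting shortened the iWAT and eWAT lists to the 48308 sites of BAT. Shares over all regions were not worked out for it, so the turn is not shown to be particular to this stretch. With the full lists, the shares of BAT alone were 16.4% at Ebf1 and 12.2% in the Ebf2 gene stretch, with the background of 11.4% inside both intervals.

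Regions shared by a pair of depots were counted in each stretch. In the Ebf1 stretch 9 regions were shared by iWAT and eWAT, 2 by BAT and iWAT and 3 by BAT and eWAT. In the Ebf2 gene stretch, 1 was shared by iWAT and eWAT, 6 by BAT and iWAT and 5 by BAT and eWAT. The downstream stretch held 1, 1 and 3 such regions. Over all regions, 11.3% were in iWAT and eWAT, 6.73% in BAT and iWAT and 5.32% in BAT and eWAT. The white pair was the largest at Ebf1, as over all regions, at 16.4% (7.77 to 28.8). It was the smallest in the Ebf2 gene stretch, at 2.44% (0.0617 to 12.9). These intervals include the background, as do those of the other pairs in every stretch. The genes were not tested against each other, so no difference between them is shown. With sites within 200 bp merged, the Ebf2 gene stretch had 12 common regions in place of 7, so its classes depend on the merging.

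**Figure D2:**
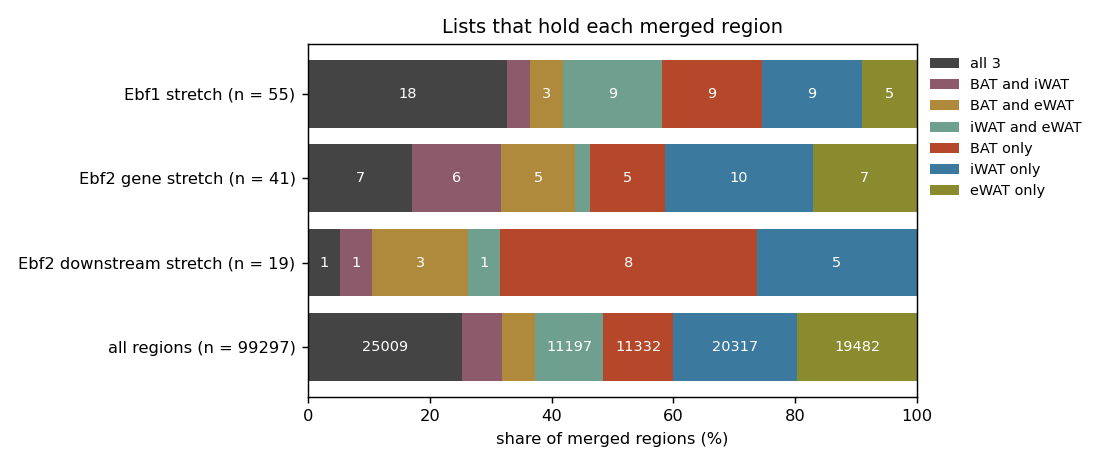
Bars give the share of merged regions (x axis, %) by the lists that hold them, for the 3 stretches and for all regions, with the number of regions written in the larger segments. Regions of BAT alone take 42.1% of the downstream stretch and 11.4% of all regions, and common regions take 32.7% of the Ebf1 stretch.

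Absence from a list did not always mean a distant site. Of the 8 downstream regions of BAT alone, 3 lay less than 1 kb from a site of a white depot and 5 lay farther off. The strongest of them, at chr14:68221428-68221650, held 20.6 normalized tags (13.2 to 30.6, 81.4th percentile) and began 5 bp after an eWAT site of 12.5 normalized tags, which overlapped an iWAT site of 22.7. All 3 depots thus listed a site at this place, and that of BAT touched neither of the others. Another 3 of the 8 were in the top 25% of BAT, each with 18.0 normalized tags (11.1 to 27.5) and at the 75.0th percentile, on the limit of that class. That at chr14:68288925-68289147 lay 39 bp from an iWAT site, that at chr14:68286789-68287011 lay 545 bp from one, and that at chr14:68244397-68244619 lay 1932 bp from one. The other 4 held 8.57 to 13.7 normalized tags and were 1341 to 7324 bp from the nearest site of a white depot.

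The downstream sites fell into groups separated by more than 20 kb. The first 100 kb of the stretch held a single site, listed in iWAT. The densest bin of 50 kb, from 68200000 to 68250000, held 6 BAT, 4 iWAT and 4 eWAT sites, and all of these lay within 28.7 kb. Next came a group of 11.3 kb at chr14:68281487-68292831, with 5 BAT sites, 2 iWAT sites and 0 eWAT sites. The BAT sites there held 8.57, 20.6, 18.0, 18.0 and 11.1 normalized tags and the 2 iWAT sites 13.8 each. All 7 sites of this group stood low above their surroundings, with folds of 4.16 to 5.42 in BAT and 4.71 to 4.74 in iWAT, where the lowest fold in any list was 4. The minimum thus lay just below every site in the group, and whether eWAT has tags there under that minimum was not tested.

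Of the alternative settings, only a minimum fold of 6 left out all sites of that group. With it, 8 BAT, 6 iWAT and 4 eWAT sites were left downstream, in the same order. With lists of equal length the numbers were 13, 8 and 5, and under a shared minimum of the score 13, 8 and 4. These settings kept all 13 BAT sites, so they cannot show whether the order rests on the group. With the top 50% of each list, which also keeps BAT sites of the group, they were 8, 4 and 4, so that iWAT and eWAT did not differ. The stretch was picked for its BAT sites, so the order is a description. With sites within 200 bp merged, the common regions numbered 4 and the regions of BAT alone 6.

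Sites in the top 25% that were listed in a single depot were also found around the genes. Their share over all regions was not worked out, here or downstream, so whether these numbers are high or low is not shown. In the Ebf1 stretch there were 2, both in BAT: chr11:44479556-44479778 with 20.6 normalized tags, 95 bp from an eWAT site, and chr11:44757434-44757656 with 18.0, 19 bp from an iWAT site. In the Ebf2 gene stretch there were also 2. The iWAT site at chr14:67891327-67891549 held 29.6 normalized tags (19.9 to 42.2, 89.3rd percentile) and was the second highest of iWAT in that stretch. The eWAT site at chr14:67892670-67892890 held 14.3 (9.15 to 21.2) and lay 1121 bp from this iWAT site. BAT listed no site at either place.

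The tag counts of common regions were then set against each other. For each pair of depots, the ratio of normalized tag counts was divided by its median over all 24988 common regions with exactly 1 site per list, so that 1 stands for the typical common region. The median ratios before that step were 0.798 for BAT over iWAT, 1.21 for BAT over eWAT and 1.52 for iWAT over eWAT. The 26 common regions of the stretches held 18 in the Ebf1 stretch, 7 in the Ebf2 gene stretch and 1 downstream. Of these, 16 were above 1 for BAT over iWAT, 21 for BAT over eWAT and 17 for iWAT over eWAT. The median log2 values were 0.21, 0.22 and 0.14. These 3 sets of ratios share their libraries and are not independent.

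Regions past 2-fold were counted among the 26. For BAT over iWAT 0 were above and 1 was below, against 2.80% and 2.77% of all common regions. For BAT over eWAT 2 were above and 0 below, against 2.73% and 2.44%. For iWAT over eWAT 0 were above and 0 below, against 1.86% and 1.94%. With 26 regions, numbers this small do not show a difference from these shares in either direction. In the plot of centred ratios most intervals include 0 on the log2 scale.

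In the Ebf2 gene stretch, the region at chr14:68034098-68034411 was higher in BAT. It held 43.7 normalized tags in BAT (32.5 to 57.4), 28.6 in iWAT and 16.1 in eWAT (10.6 to 23.4), at the 98.2nd, 88.4th and 83.6th percentile. Relative to the typical common region it was 2.24-fold higher in BAT than in eWAT (1.38 to 3.72) and 1.91-fold higher in BAT than in iWAT (1.19 to 3.13). Like the Ebf1 regions below, it is named because a ratio passed 2-fold, so the intervals of these ratios are no test. The BAT and eWAT sites had midpoints 1 bp apart. It was the second highest site of BAT in the stretch and number 3 of eWAT. By fold over the surroundings the order was another: 11.2 in BAT, 14.0 in iWAT and 9.02 in eWAT.

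In the Ebf1 stretch, 2 regions passed 2-fold, in opposite directions. The region at chr11:44554062-44554421 held 23.1 normalized tags in BAT, 16.7 in iWAT and 8.33 in eWAT, and was 2.29-fold higher in BAT than in eWAT (1.16 to 4.73). Its eWAT site was centred 138 bp from that of BAT, so the 2 sites overlapped only in part. Its fold over the surroundings was 8.16 in BAT, 7.20 in iWAT and 4.23 in eWAT. With folds over the surroundings in place of tags, neither this region nor that of the Ebf2 gene stretch was past 2-fold for BAT over eWAT, and a limit of 50 bp between the 3 midpoints, chosen after seeing the data, leaves both out. The region at chr11:44791248-44791519 held 13.7 normalized tags in BAT (7.83 to 22.3), 38.4 in iWAT (27.3 to 52.5) and 16.7 in eWAT. At 0.447-fold (0.233 to 0.818) BAT was lower than iWAT there, with midpoints 49 bp apart. The fold over the surroundings there was 4.44 in BAT, 9.87 in iWAT and 5.48 in eWAT. Under each alternative setting of the ratios, the number of regions below 2-fold for BAT over iWAT stayed at 1. This Ebf1 region was at the 57.9th percentile in BAT, the 95.1st in iWAT and the 85.1st in eWAT.

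**Figure D3:**
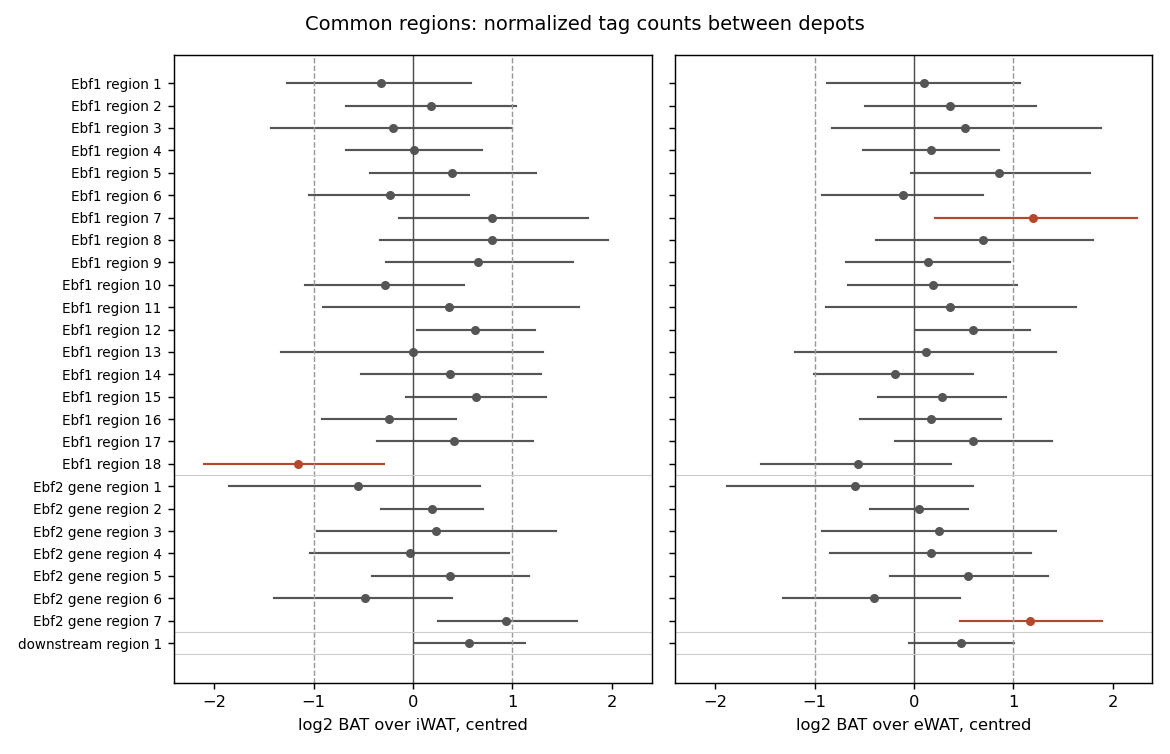
Points give the log2 ratio of normalized tag counts in BAT over iWAT (left) and BAT over eWAT (right) for the 26 common regions in order of position, minus the median of all common regions; bars are 95% counting intervals and dashed lines mark 2-fold. The 3 red points are the regions past 2-fold: 1 below for iWAT and 2 above for eWAT.

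The sites of a common region did not always coincide. The 3 midpoints lay within 50 bp in 6 of the 26 regions (23.1%), against 33.9% of all common regions, and the median distance between the outermost midpoints was 102 bp against 73 bp. The widest spread, 290 bp, was in the Ebf2 gene stretch at chr14:67883545-67884057, where the BAT and iWAT sites were joined through the eWAT site alone. In the Ebf1 stretch, a pair of sites likewise did not overlap or touch at chr11:44354775-44355224, chr11:44569799-44570255 and chr11:44719948-44720395.

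Height above the surroundings set the Ebf1 stretch apart from its tag counts. Sites there were strong in tags but low in fold over the surroundings: the median fold was 6.18 in BAT, 7.08 in iWAT and 5.39 in eWAT, against 9.23, 9.91 and 7.46 in the whole lists. Ranked by this fold, the median percentile was 18.5 in BAT, 24.6 in iWAT and 19.5 in eWAT, against 72.2, 66.7 and 70.3 by tag count. The tag count divided by the fold gives the tags that a site would hold at the density of its surroundings. Its median in the Ebf1 stretch was 2.84 normalized tags in BAT, 2.58 in iWAT and 2.21 in eWAT, which is 2.04, 1.78 and 1.70 times that of the whole list. The surroundings of the Ebf1 sites, which can include neighbouring sites, were thus rich in tags in all 3 depots.

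The Ebf2 stretches differed from the whole lists less in this measure. The density of the surroundings was 1.35 times that of the list in BAT, 1.14 times in iWAT and 1.12 times in eWAT in the gene stretch. Downstream it was 1.48 times in BAT, 1.15 times in iWAT and 1.06 times in eWAT. The median fold in BAT was low here too, at 6.81 in the gene stretch and 6.50 downstream, against 9.23 in the list. In iWAT it was 8.405 and 9.99 against 9.91, and in eWAT 6.77 and 9.93 against 7.46. In the downstream stretch, ranking by fold in place of tags moved the median percentile of BAT to 21.75 but left iWAT at 49.9 and eWAT at 75.1. The BAT sites of the group of 11.3 kb, at folds of 4.16 to 5.42, are among those ranked low by this measure.

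**Figure D4:**
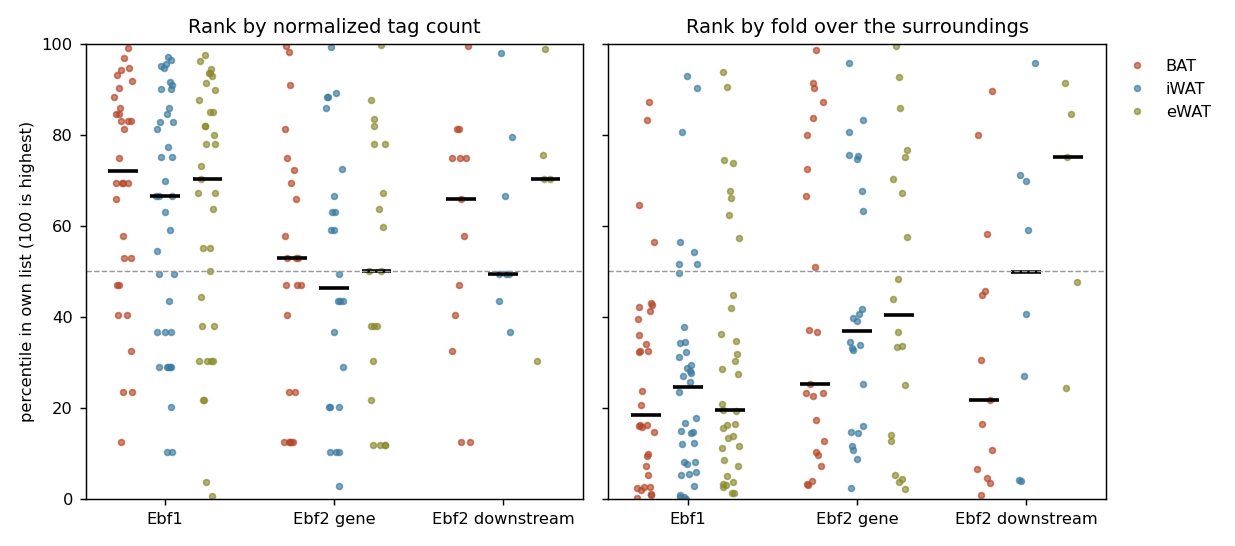
Each point is 1 site at its percentile in its own list (y axis, 100 is highest), ranked by normalized tag count (left) and by fold over the surroundings (right), for BAT, iWAT and eWAT in each stretch; black bars are medians and the dashed line is 50. The Ebf1 medians lie at 66.7 to 72.2 on the left and at 18.5 to 24.6 on the right.

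Of the remaining columns, the median clonal fold was 0.96 or 0.97 in every stretch and depot, and 0.97 in each whole list. The focus ratio had medians of 0.667 in BAT, 0.687 in iWAT and 0.685 in eWAT in the Ebf1 stretch, against 0.704, 0.704 and 0.688 in the lists. In the Ebf2 gene stretch they were 0.704, 0.705 and 0.699, and downstream 0.694, 0.655 and 0.730.

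Within the stretches the sites were not evenly spread. The densest 50 kb of the Ebf1 stretch, from 44450000 to 44500000, held 6 BAT, 5 iWAT and 5 eWAT sites in 8 regions, of which 3 were common. The last 100 kb, from 44800000 on, held 1 BAT, 3 iWAT and 3 eWAT sites. In the Ebf2 gene stretch the densest 50 kb ran from 67950000 to 68000000, with 6 BAT, 7 iWAT and 4 eWAT sites in 10 regions, of which 1 was common. This Ebf2 bin held number 3 of iWAT and number 2 of eWAT in the stretch, and none of the 3 highest sites of BAT. The last 50 kb before the downstream stretch held 1 BAT, 1 iWAT and 0 eWAT sites.

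The nearest site outside the Ebf1 window, in eWAT, lay 1.12 kb before it with 9.52 normalized tags, and the first inside, in iWAT, lay 4.89 kb after its start with 25.6. Beyond its end the next site was 81.2 kb away. The nearest site before the Ebf2 window, in BAT, lay 14.6 kb away with 11.1 normalized tags, and the next after it, in iWAT, 38.4 kb away with 12.8.

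The windows elsewhere whose numbers of sites were most like the downstream stretch of Ebf2 lay on 3 other chromosomes. Likeness was the Euclidean distance between the 3 numbers of sites over windows of 250 kb. The window chr10:125500001-125750000 held 12 BAT, 7 iWAT and 4 eWAT sites. The window chr9:54250001-54500000 held 11, 8 and 6, and chr19:57250001-57500000 held 12, 9 and 7. Their genes were not analysed here.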

How the data were processed

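DNase-seq was analysed from 3 deposited peak lists, 1 library per depot, in mm9 coordinates as the files give them. STAR, HOMER and mm9 are listed in the submitters' processing notes, and roles, versions and settings are not given in the sources used here. Per the file headers, each site has a normalized tag count (a signal relative to a library total that is not stated), a focus ratio (a fraction), a peak score, a fold (ratio) over its surroundings with a p-value that was not used here, and a clonal fold. These values are the authors' own. With a tolerance of 0.0055 below 10 and 0.055 from 10 on, nearly all tag counts were whole multiples of the step. The percentages were 99.9% in BAT, 100.0% in iWAT and 99.6% in eWAT. This gave the tags behind the exact Poisson intervals of tag counts and the exact conditional intervals of ratios. The exact (Clopper-Pearson) intervals of shares rest on numbers of sites and regions. PCR copies are not independent molecules, so these intervals describe counting error, and nearby sites share their chromatin.

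Sites were put in a stretch by midpoint. No test between depots was possible with 1 library each, and p-values are not given. The windows, measures and lists were chosen with earlier results of these data known. Named in the text are the 3 highest sites per stretch and depot, common regions past 2-fold and strong sites of a single list. Also named are the densest bin of 50 kb per stretch and the 3 windows most like the downstream stretch. The 11.3 kb group downstream and the widest common region of the Ebf2 gene stretch were added after their values were seen. So were the Ebf1 common regions with a pair of sites apart. Other genes of the pathway were not analysed here for want of an mm9 annotation. The merging and ratio code was tested on simulated data. The software was scipy 1.17.1, pandas 2.3.3, numpy 2.4.6 and Python 3.11.15. Alternatives covered list length, minimum score, the top 50% of each list, a minimum fold of 6, merging within 200 bp, the ranking measure and the scaling of ratios.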

Additional observations from a re-analysis of the deposited data

How the results depend on the processing

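No paired analysis was possible because each depot has 1 library, and for the same reason no replicate could be left out. Counts of sites or regions are called moved here where they changed by more than 1.5 times. Assigning sites by any overlap with a stretch moved none of the 9 counts it was run on, and lists of equal length left 18 of 21 within that range. Ranked by peak score, the median percentiles stayed close to those by tag count. The largest change was from 46.5 to 53.1, for iWAT in the Ebf2 gene stretch.

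With the top 50% of each list, the Ebf1 stretch held 25 iWAT and 23 eWAT sites, the Ebf2 gene stretch 12 BAT, 12 iWAT and 10 eWAT sites, and the downstream stretch 8 BAT and 4 iWAT sites; this setting removes sites by construction. Regions of a single depot then numbered 3 in eWAT at Ebf1, 6 in iWAT and 2 in eWAT in the Ebf2 gene stretch, and 2 in iWAT and 1 in eWAT downstream. With a minimum fold of 6, Ebf1 held 16 BAT, 25 iWAT and 14 eWAT sites, the Ebf2 gene stretch 13 eWAT sites and the downstream stretch 8 BAT sites. With the same minimum score, the Ebf2 gene stretch held 13 eWAT sites and 2 regions of eWAT alone. With lists of equal length it held 9 regions of BAT alone, 6 of iWAT alone and 4 of eWAT alone, so the order of BAT and iWAT turned round. Shares over all regions were not worked out at that setting, which shortens the white lists only.

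With sites within 200 bp merged, the Ebf2 gene stretch had 12 common regions, 3 of BAT alone and 5 of iWAT alone, and the downstream stretch 4 common and 2 of iWAT alone. Among 37 common regions, 1 was then above and 1 below 2-fold for BAT over iWAT, 2 above and 0 below for BAT over eWAT, and 1 above and 1 below for iWAT over eWAT. Without centring, 7 of 26 regions were above 2-fold for iWAT over eWAT. With folds over the surroundings in place of tags, 1 region was above for BAT over iWAT and 0 for BAT over eWAT. With the 3 midpoints within 50 bp, a setting chosen after seeing the data, 6 regions were left and 0 were above for BAT over eWAT. Ranked by fold over the surroundings, the median percentile was 18.5, 24.6 and 19.5 for BAT, iWAT and eWAT at Ebf1, 25.2, 36.9 and 40.4 in the Ebf2 gene stretch, and 21.75 for BAT downstream. The median site of a list held 12.0 normalized tags in BAT, 13.8 in iWAT and 9.52 in eWAT, so weak sites rest on few tags and may be listed in 1 library and missed in another.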
